A study of Caenorhabditis elegans with 18 samples.

Results

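The cytochrome P450 family of Caenorhabditis elegans was taken as every gene whose WormBase symbol starts with cyp- and a number. This rule uses names and no measured value. It found 73 members among the 20505 gene models counted, in 25 subfamilies such as cyp-13A and cyp-33C, and cyp-31A5 was not analysed here. The libraries hold polyA RNA from lysates of whole worms at the L4 larval stage, raised from hatching at 20C. There were 3 libraries in each of 6 groups: met-2(ok2307) worms on cco-1 RNAi and on empty vector, lin-65(n3441) worms on cco-1 RNAi and on empty vector, and N2 worms on cco-1 RNAi and on empty vector. N2 is the laboratory wild-type strain, met-2 encodes a histone H3 lysine 9 methyltransferase, and the lin-65 product acts with it. The gene cco-1, now called cox-5B, is a nuclear gene for a cytochrome c oxidase subunit, so its RNAi lowers a component of the mitochondrial respiratory chain. All worms ate bacteria carrying empty vector, which the cco-1 RNAi food also contained. Each mutant is represented by 1 allele, and RNAi and mutation act in the whole animal. The design asks how the response to cco-1 RNAi compares between the strains.

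P450 enzymes are heme proteins that take electrons from a reductase and insert an oxygen atom into a lipophilic substrate. They oxidise foreign compounds, fatty acids and sterols, and in worms many of them are made in the intestine, where several are induced by xenobiotics. Others serve the animal's own lipid signals: the P450 DAF-9, named for another phenotype and so outside the symbol rule, makes the dafachronic acid hormones.

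Totals ran from 5141303 to 19261705 counts per library. Levels are given as counts scaled to library size (CPM), and levels of different genes are set side by side only as CPM per kilobase of exon. The RNAi target cox-5B had 438, 354 and 268 CPM in met-2 on cco-1 RNAi, against 611, 579 and 901 CPM on empty vector. In lin-65 it had 264, 268 and 301 CPM on cco-1 RNAi, against 730, 538 and 490 CPM on empty vector, and in N2 283, 295 and 311 CPM, against 741, 754 and 658 CPM. The RNAi libraries were lower throughout, with no overlap in any strain. Transcripts of met-2 lay between 6.13 and 22.8 CPM in met-2 worms and between 35.9 and 58.3 CPM in the other strains, and those of lin-65 between 5.6 and 11.4 CPM in lin-65 worms and between 12 and 29.1 CPM in N2. In met-2 worms those of lin-65 lay between 7.21 and 32.2 CPM, lowest in cco-1 RNAi replicate 1. The test of lin-65 transcripts in lin-65 against N2 was not passed (edgeR adjusted p = 0.0807 on cco-1 RNAi and 0.329 on empty vector). The library lin-65 EV replicate 1 is titled lin-65(n3441), but its strain field reads N2. The correlation of log2 CPM with the other libraries of the group was lowest for met-2 cco-1 RNAi replicate 1 (0.892) and lin-65 EV replicate 1 (0.920). Counts of calls below are also given without these 2 libraries, from a fit of the other 16. The labels do not tell whether the 3 replicates of a group were grown separately, so p-values reflect the spread among these samples, which may be technical. In RNA of whole worms, fewer cells of a type and less RNA per cell cannot be told apart.

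Over all 18 libraries, 15 members averaged over 10 CPM, 31 averaged 1 to 10 CPM and 27 averaged under 1 CPM. The highest levels per kilobase were those of cyp-33C8 (41.3 CPM per kb), cyp-35A2 (27.6), cyp-37A1 (22.7), cyp-14A5 (19.5) and cyp-35C1 (14.7). This order of means over 6 groups depends on the group. The mean of cyp-33C8 was 144 CPM per kb in met-2 on cco-1 RNAi but 3.01 in N2 on empty vector, where cyp-35A2 (26.3), cyp-35C1 (19.4) and cyp-37A1 (19.1) were highest and cyp-14A5 had 7.22. Over all libraries, a second tier held cyp-43A1 (12.9 CPM per kb), cyp-44A1 (12.5), cyp-31A3 (12), cyp-29A2 (11.8) and cyp-42A1 (11.3). Of these, cyp-35A2 belongs to a xenobiotic-inducible intestinal subfamily, and cyp-44A1 resembles the mitochondrial P450s of other animals. Summed over the family, the level was 793 ± 90.6 CPM in met-2 on cco-1 RNAi and 518 ± 34.1 CPM in met-2 on empty vector (SD, n = 3 each). It was 469 ± 41.3 CPM in lin-65 on cco-1 RNAi and 439 ± 13.7 CPM on empty vector, and 528 ± 5.74 CPM in N2 on cco-1 RNAi and 387 ± 59.1 CPM on empty vector. The gene cyp-33C8 alone accounted for 241 ± 14 CPM of the sum in met-2 on cco-1 RNAi.

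**Figure D1:**
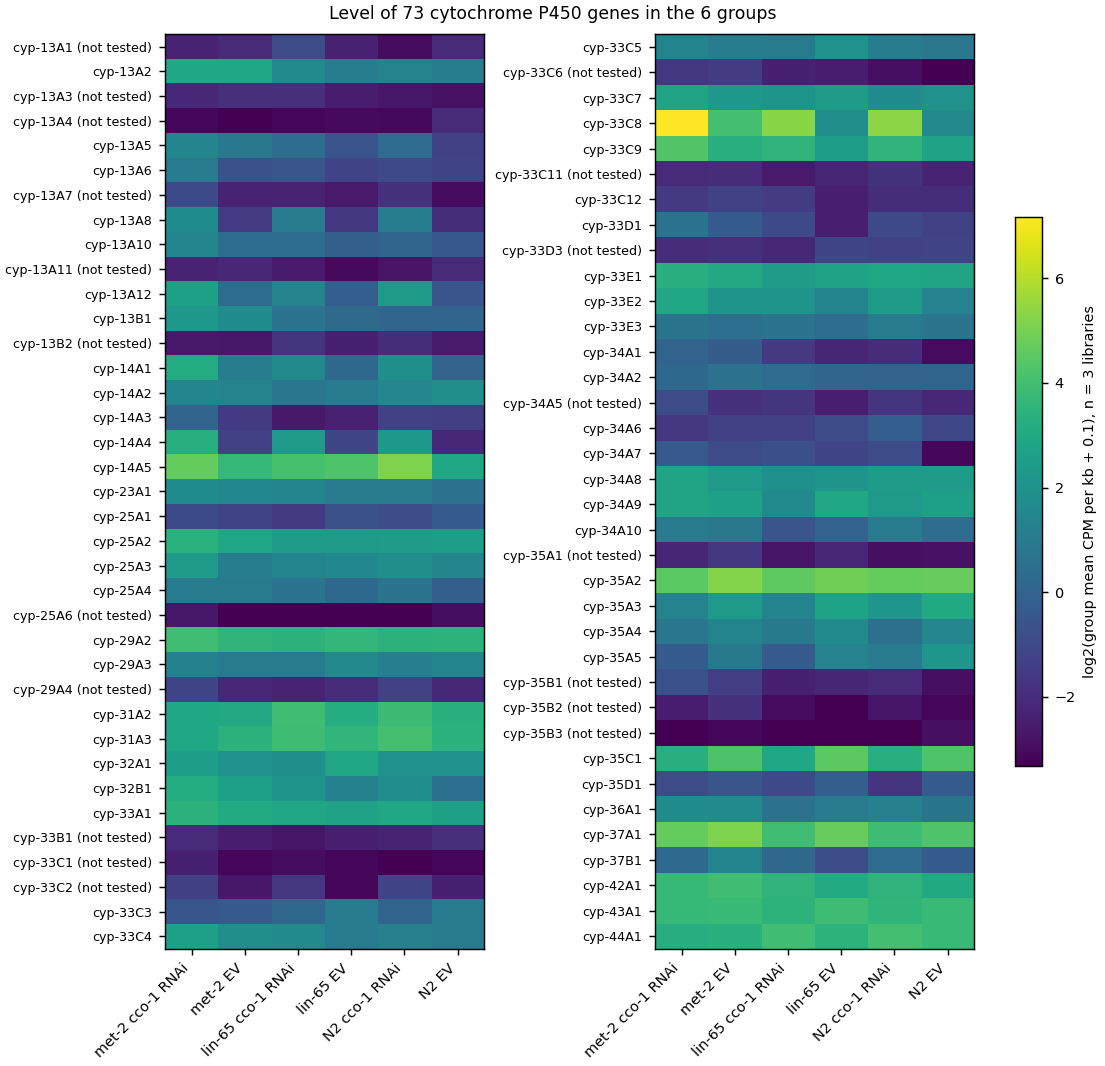
Each cell is the mean level of 1 P450 gene in 1 group (n = 3 libraries), coloured by log2(CPM per kb + 0.1), with genes down the page and groups across. The brightest cell is cyp-33C8 in met-2 on cco-1 RNAi, and the 19 genes marked as not tested are among the darkest.

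The filter on low counts passed 54 members, from 23 subfamilies, and 19 were not tested. No untested member exceeded a group mean of 0.861 CPM. They were cyp-13A1, cyp-13A3, cyp-13A4, cyp-13A7, cyp-13A11, cyp-13B2, cyp-25A6, cyp-29A4, cyp-33B1, cyp-33C1, cyp-33C2, cyp-33C6, cyp-33C11, cyp-33D3, cyp-34A5, cyp-35A1 and the 3 cyp-35B genes. Among them cyp-35B1, known as a target of the insulin-regulated factor DAF-16, had 0.36, 0.681 and 1.54 CPM in met-2 on cco-1 RNAi and 0.469, 0.212 and 0.686 CPM in met-2 on empty vector. It had 0.506, 0.121 and 0.0511 CPM in N2 on cco-1 RNAi and 0, 0 and 0.163 CPM in N2 on empty vector. Many members lie close together in the genome. By the order of genes in the WBcel235 annotation, with up to 3 other genes allowed between members, cyp-13A1 to cyp-13A8 form a run of 8, and cyp-35A5, the cyp-35B genes and cyp-34A5 to cyp-34A10 a run of 10. Members of 1 subfamily are similar in sequence, and no source used here says how reads that match several of them were counted.

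The response to cco-1 RNAi was tested within each strain with edgeR's quasi-likelihood test, and a gene is called where the Benjamini-Hochberg adjusted p over all 15110 genes tested is under 0.05. Log2 fold changes are given ± SE and, in parentheses, shortened to log2 change. In N2, 8 of the 54 members rose and none fell, against 0.543% of all genes called higher and 0.298% called lower. Lower in N2 at an unadjusted p under 0.05 were 5 members, and DESeq2 called 2 of the 54 lower. In lin-65, 5 rose and 2 fell, against 0.271% and 0.443% of all genes. In met-2, 6 rose and none fell, against 0.543% and 0.563%, while 5 members were lower at an unadjusted p under 0.05 and DESeq2 called 2 lower. The 4 genes cyp-33C8, cyp-13A8, cyp-14A4 and cyp-13A12 rose in all 3 strains. The median log2 fold change of the 54 members was 0.31 in N2, 0.19 in lin-65 and 0.32 in met-2, beside -0.01, -0.02 and 0.01 over all genes tested.

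Libraries on the 2 diets did not overlap, with RNAi higher, for 18 members in N2 (20.5% of all genes), 12 in lin-65 (7.76%) and 15 in met-2 (7.41%). They did not overlap with RNAi lower for 3 members in N2 (18.1%), 9 in lin-65 (8.5%) and 5 in met-2 (5.98%). The count of called members depended on single libraries. In N2 it was 5 without EV replicate 1, EV replicate 3 or cco-1 RNAi replicate 3, 16 from the 16 libraries, and 13 without met-2 cco-1 RNAi replicate 1. Over all genes these fits called 64, 71, 50, 2828 and 863 in that order, against 127 from all 18 libraries. The larger member counts thus came with larger counts of all genes. The 8 added from the 16 libraries were cyp-33C9, cyp-33E2, cyp-31A3 and cyp-34A7, higher on cco-1 RNAi, and cyp-33C3, cyp-35A5, cyp-35C1 and cyp-35D1, lower. In lin-65 it was 4 without EV replicate 1 or cco-1 RNAi replicate 2. From the 6 libraries of a strain alone it was 14 in N2, beside 2860 of all genes. From its 6 libraries alone, lin-65 gave 2 members, cyp-14A4 and cyp-33C8, beside 19 of all genes. For N2, same-numbered libraries were taken as pairs from their correlations, as the titles state no pairing. A replicate block was fitted on all 18 libraries, with replicate effects shared by the 6 groups. In the N2 response it gave 10 members and 200 of all genes, against 127 of all genes without it.

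**Figure D2:**
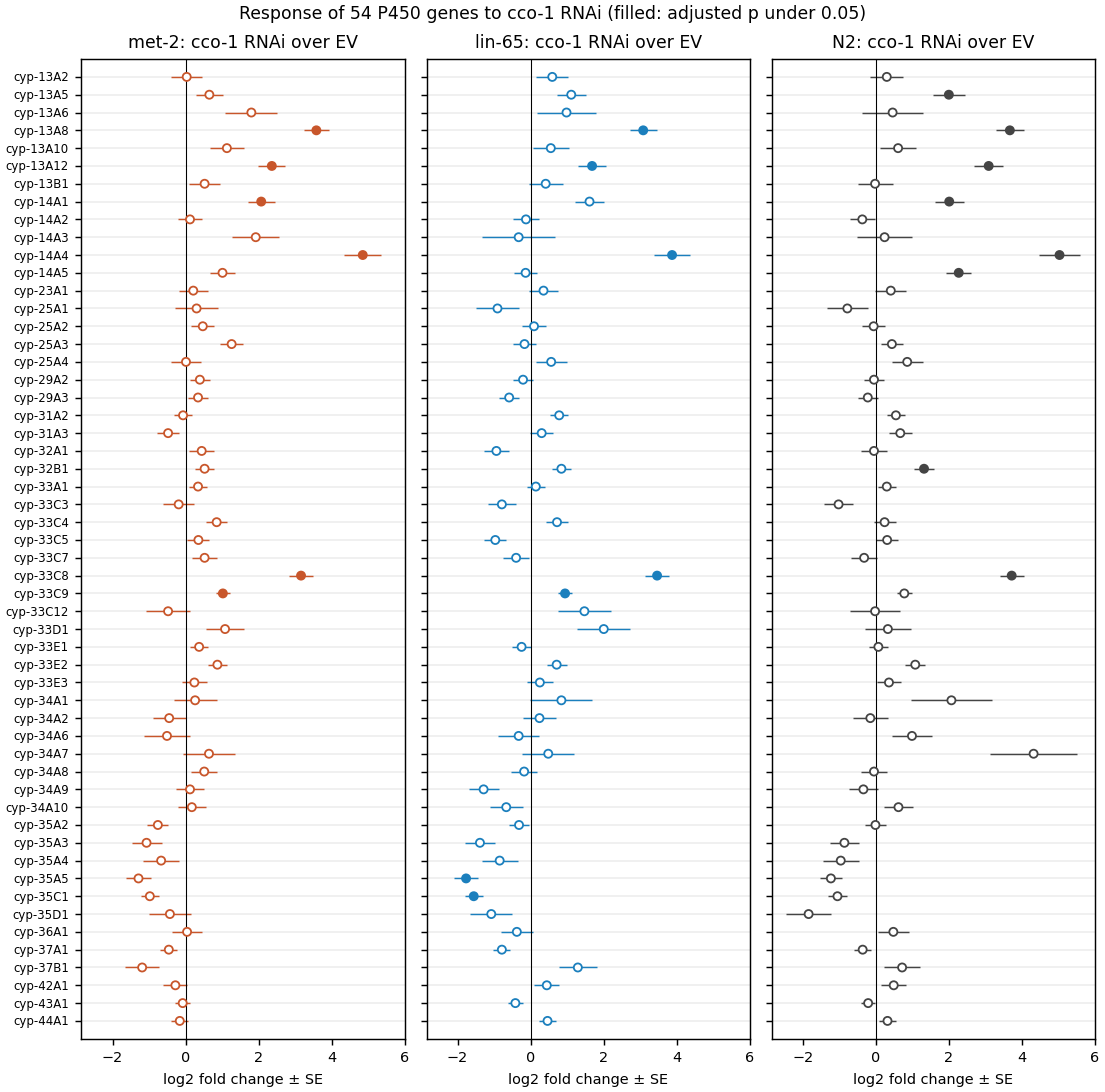
Points are log2 fold changes of cco-1 RNAi over empty vector for the 54 tested P450 genes, with bars of 1 SE, in met-2, lin-65 and N2 from left to right. Filled points have an adjusted p under 0.05: cyp-33C8, cyp-13A8, cyp-14A4 and cyp-13A12 stand far to the right in each strain, while cyp-35A5 and cyp-35C1 are filled to the left in lin-65.

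The highest level per kilobase on cco-1 RNAi was that of cyp-33C8, of the large cyp-33C subfamily. It had 255, 241 and 227 CPM in met-2 on cco-1 RNAi, against 28.5, 27.8 and 24.5 CPM on empty vector. In lin-65 the values were 48.6, 70.3 and 81 CPM on cco-1 RNAi, against 3.41, 9.14 and 5.37 CPM on empty vector. In N2 they were 60.3, 67.1 and 74.4 CPM, against 4, 3.93 and 7.14 CPM. Every RNAi library lay far above every empty-vector library of its strain, and both met-2 groups lay above the matching groups of the other strains. The log2 fold change of cco-1 RNAi over empty vector was 3.16 ± 0.32 (adjusted p = 3.50e-05) in met-2, 3.46 ± 0.33 (adjusted p = 5.16e-05) in lin-65 and 3.72 ± 0.33 (adjusted p = 1.01e-05) in N2. These calls held without any 1 of the 18 libraries.

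At a lower level, cyp-14A4 also rose in all 3 strains. Its promoter has been used as a reporter of detoxification genes induced by mitochondrial dysfunction in worms. It had 17.2, 15.2 and 12.5 CPM on cco-1 RNAi in met-2, against 0.586, 0.495 and 0.429 CPM on empty vector. Its values were 6.12, 6.32 and 10.8 CPM on cco-1 RNAi in lin-65, against 0.974, 0.454 and 0.227 CPM, and 6.66, 7.03 and 8.49 CPM in N2, against 0.148, 0 and 0.436 CPM on empty vector. The empty-vector libraries held 0 to 10 counts of it each, and every RNAi library lay above every empty-vector library of its strain. The log2 fold changes were 4.85 ± 0.51 (adjusted p = 5.50e-05) in met-2, 3.87 ± 0.50 (adjusted p = 0.000601) in lin-65 and 5.03 ± 0.57 (adjusted p = 9.28e-05) in N2. In the annotation it lies within 3 other genes of a block of cyp-14A1, cyp-14A2 and cyp-14A3, of which cyp-14A1 was called in met-2 and N2, as given below. The genes cyp-14A2 and cyp-14A3, named after their values were seen, were called in no strain, with log2 fold changes of 0.12 ± 0.34 and 1.92 ± 0.65 in met-2, -0.13 ± 0.36 and -0.33 ± 1.00 in lin-65, and -0.37 ± 0.34 and 0.24 ± 0.75 in N2.

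The cyp-13A subfamily, related to the CYP3 clan of vertebrate drug-metabolising enzymes, gave 2 genes that rose in all strains. In met-2, cyp-13A8 had 5.77, 5.31 and 4.75 CPM on cco-1 RNAi, against 0.645, 0.353 and 0.257 CPM on empty vector. Its lin-65 levels were 3.57, 2.08 and 3.79 CPM on cco-1 RNAi, against 0.292, 0.397 and 0.379 CPM, and its N2 levels 3.12, 3.52 and 3.32 CPM, against 0.297, 0.203 and 0.272 CPM. The RNAi libraries were separated from the empty-vector ones in each strain. Its log2 fold changes were 3.58 ± 0.35 (adjusted p = 3.50e-05) in met-2, 3.08 ± 0.37 (adjusted p = 0.000234) in lin-65 and 3.67 ± 0.39 (adjusted p = 5.95e-05) in N2. The run it lies in held 3 other tested genes, of which cyp-13A5 rose in N2, and cyp-13A2 and cyp-13A6 were called in no strain's response. In N2, cyp-13A5 had 2.44, 1.21 and 2.2 CPM on cco-1 RNAi, against 0.742, 0.271 and 0.545 CPM on empty vector (log2 change 2.00 ± 0.44, adjusted p = 0.0379). That call held in 5 of the 18 fits that each left out 1 library, and was lost without any 1 of the 6 libraries compared except N2 cco-1 RNAi replicate 2 (adjusted p 0.073 to 0.218).

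For cyp-13A12, which in worms makes eicosanoids and acts in the behavioural response to reoxygenation, the met-2 values were 13.2, 9.26 and 9.38 CPM on cco-1 RNAi, against 2.05, 1.77 and 2.4 CPM on empty vector. The lin-65 values were 2.89, 4.46 and 5.52 CPM, against 0.682, 1.36 and 1.97 CPM, and the N2 values 7.75, 7.52 and 9.71 CPM, against 1.19, 0.474 and 1.31 CPM. Groups on the 2 diets did not overlap, and the gap was narrowest in lin-65. The log2 fold changes were 2.36 ± 0.37 (adjusted p = 0.00181) in met-2, 1.68 ± 0.38 (adjusted p = 0.0492) in lin-65 and 3.09 ± 0.40 (adjusted p = 0.000335) in N2. In lin-65 the adjusted p was above 0.05 without any 1 of the 6 lin-65 libraries, ranging from 0.0509 without EV replicate 3 to 0.318 without cco-1 RNAi replicate 3, and it was 0.0632 in the fit of 16 libraries. The annotated neighbour cyp-13A11 was among the untested genes.

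Other members were called in 1 or 2 strains. In met-2, cyp-14A1 had 17.5, 9.19 and 13.2 CPM on cco-1 RNAi, against 2.93, 4.03 and 2.49 CPM on empty vector (log2 change 2.07 ± 0.37, adjusted p = 0.00549). In N2 it had 4.89, 5.09 and 7 CPM, against 1.33, 1.22 and 1.63 CPM (log2 change 2.01 ± 0.40, adjusted p = 0.0176). The lin-65 values, 2.38, 5.05 and 6.52 CPM on cco-1 RNAi against 2.14, 0.908 and 1.74 CPM on empty vector, did not overlap either and missed the threshold (log2 change 1.61 ± 0.39, adjusted p = 0.0708), but passed from the 16 libraries (log2 fold change 1.89, adjusted p = 0.0222). The met-2 call was lost without met-2 EV replicate 1 (adjusted p = 0.0557). The N2 call was lost without any 1 of the 6 libraries compared except N2 cco-1 RNAi replicate 1 and N2 cco-1 RNAi replicate 2 (adjusted p 0.0641 to 0.128).

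A smaller change was seen for cyp-33C9. It had 35, 27.4 and 34.7 CPM in met-2 on cco-1 RNAi, against 16.4, 15.1 and 16.2 CPM on empty vector (log2 change 1.02 ± 0.20, adjusted p = 0.0114). In lin-65 it had 16.7, 17.2 and 20 CPM on cco-1 RNAi, against 8.77, 9.99 and 9.31 CPM (log2 change 0.94 ± 0.20, adjusted p = 0.0359), and in N2 19.6, 16.5 and 18.7 CPM, against 9.94, 9.35 and 12.5 CPM (log2 change 0.78 ± 0.20, adjusted p = 0.0871). The libraries were separated by diet in every strain, also in N2, where the test was passed from the 16 libraries (log2 fold change 0.80, adjusted p = 0.00618) but not from all 18. The met-2 call was lost without met-2 EV replicate 1 (adjusted p = 0.0699), met-2 EV replicate 2 (0.09) or met-2 EV replicate 3 (0.0557), and the lin-65 call without any 1 of the 6 lin-65 libraries (adjusted p 0.0604 without EV replicate 2 to 0.231 without cco-1 RNAi replicate 3). The gene cyp-32B1, annotated beside cyp-33C12, rose in N2, with 5.98, 5.09 and 5.67 CPM on cco-1 RNAi against 1.63, 3.05 and 1.91 CPM on empty vector (log2 change 1.32 ± 0.28, adjusted p = 0.0279). Its call was lost without any 1 of the 6 libraries compared except N2 EV replicate 2 (adjusted p 0.0597 to 0.161).

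**Figure D3:**
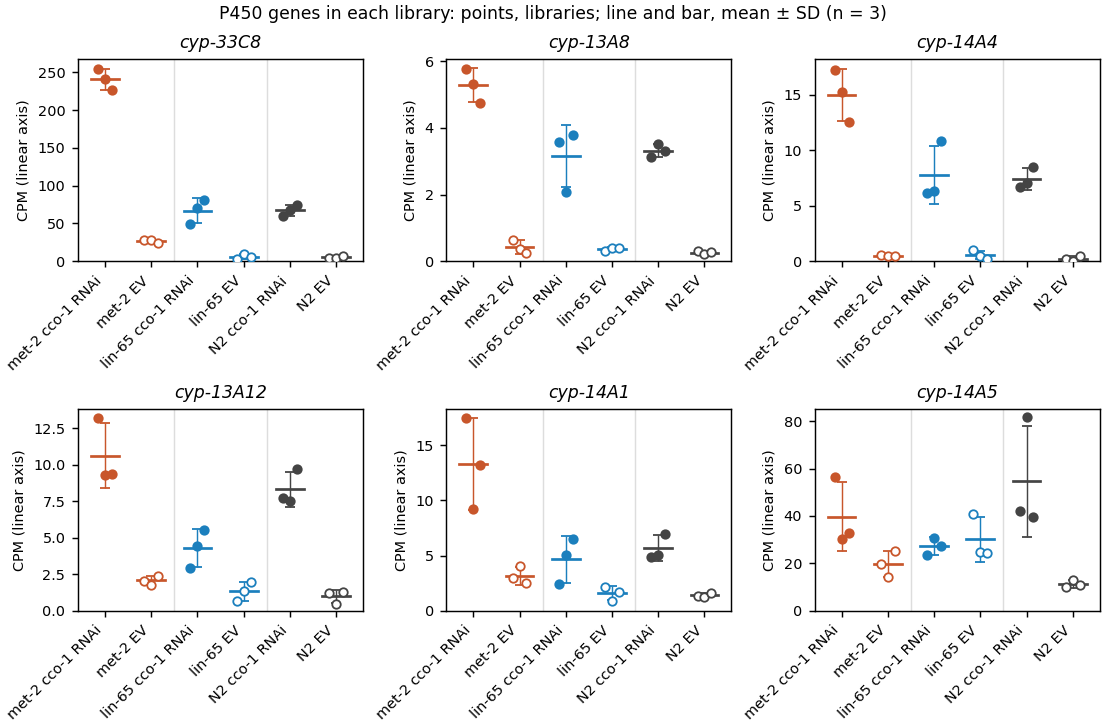
Each panel shows 1 gene, with CPM on a linear axis from 0 and the 6 groups across; points are libraries, and lines and bars are the mean ± SD (n = 3). The filled RNAi points of cyp-33C8, cyp-13A8 and cyp-14A4 lie above all open empty-vector points in every strain, whereas those of cyp-14A5 in lin-65 lie among the empty-vector points.

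The response of cyp-14A5 had the smallest p of the 54 members in the test of lin-65 against N2. In lin-65 it had 23.5, 30.8 and 27.5 CPM on cco-1 RNAi, against 41, 24.9 and 24.3 CPM on empty vector, and the groups overlapped. In met-2 it had 56.4, 30.1 and 32.8 CPM, against 19.9, 14.2 and 25 CPM, and in N2 42.3, 81.7 and 39.7 CPM, against 9.79, 13 and 11 CPM, with no overlap in either strain. The log2 fold change of cco-1 RNAi was -0.14 ± 0.32 (adjusted p = 0.87) in lin-65, 1.01 ± 0.33 (adjusted p = 0.21) in met-2 and 2.27 ± 0.34 (adjusted p = 0.00166) in N2, and the N2 call held without any 1 library. The lin-65 response minus the N2 response was -2.40 ± 0.46 (adjusted p = 0.261) on the log2 scale, and the met-2 response minus the N2 response -1.25 ± 0.46 (adjusted p = 0.245). From the 16 libraries these differences were -2.13 ± 0.36, adjusted p = 0.0263 and -1.62 ± 0.37, adjusted p = 0.0422, and DESeq2 gave -2.39 ± 0.49, adjusted p = 0.00613 for lin-65. The lin-65 response itself was 0.15, adjusted p = 0.887 from the 16 libraries. On empty vector every lin-65 library exceeded every N2 library (log2 change 1.41 ± 0.33, adjusted p = 0.0401), and this call was lost without any 1 of the 6 libraries compared except lin-65 EV replicate 2 (adjusted p 0.0622 to 0.175).

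In the test of the difference itself, no member was called for lin-65 against N2 or for met-2 against N2 with edgeR (0.0% of all genes in each). At an unadjusted p under 0.05 there were 5 members and 480 genes for lin-65, and 6 members and 2603 genes for met-2. All of these members had a lower log2 fold change in the mutant than in N2. The median difference of the 54 members was -0.28 for lin-65, with 38 below 0 and 16 above, and -0.08 for met-2, with 28 and 26. Over all genes the medians were -0.04 and 0.02. DESeq2 called 1 member for lin-65, cyp-14A5, and 0 for met-2. For the genes that rose in all strains, the lin-65 response minus the N2 response was -0.26 ± 0.43 for cyp-33C8, -1.16 ± 0.79 for cyp-14A4, -0.59 ± 0.56 for cyp-13A8 and -1.40 ± 0.55 for cyp-13A12 on the log2 scale. The met-2 response minus the N2 response was -0.56 ± 0.42, -0.17 ± 0.68, -0.09 ± 0.45 and -0.73 ± 0.53 in the same order of genes. Both differences subtract the same N2 libraries.

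In the cyp-35 group, cyp-35A5 and cyp-35C1 fell on cco-1 RNAi in lin-65 and had lower levels in every RNAi library of the other strains. The group includes the best-known xenobiotic-inducible P450s of the worm intestine. Levels of cyp-35A5 on cco-1 RNAi were 1.51, 1.23 and 1.03 CPM in met-2, against 3.34, 2.97 and 3.09 CPM on empty vector. They were 1.36, 0.669 and 1.62 CPM in lin-65, against 5.46, 3.8 and 3.26 CPM, and 3.79, 3.03 and 3.02 CPM in N2, against 9.49, 5.49 and 8.23 CPM. All 3 strains were separated by diet. Levels of cyp-35C1 on cco-1 RNAi were 18.5, 9.53 and 16.1 CPM in met-2, against 30, 30.4 and 26.3 CPM on empty vector. They were 10.2, 13.9 and 12 CPM in lin-65, against 37.9, 32.3 and 36.7 CPM, and 14.3, 13.7 and 15.2 CPM in N2, against 29.5, 23.3 and 36.5 CPM. For this gene too, all RNAi libraries lay below all empty-vector libraries of their strain. Both genes passed the test in lin-65, with log2 fold changes of -1.77 ± 0.34 (adjusted p = 0.0177) for cyp-35A5 and -1.56 ± 0.25 (adjusted p = 0.00382) for cyp-35C1. In met-2 the log2 fold changes were -1.29 ± 0.34 (adjusted p = 0.0896) and -0.98 ± 0.24 (adjusted p = 0.0682), and in N2 -1.23 ± 0.31 (adjusted p = 0.0859) and -1.05 ± 0.25 (adjusted p = 0.0563), for cyp-35A5 and cyp-35C1 in that order.

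The lin-65 call of cyp-35A5 was lost without lin-65 EV replicate 1 (adjusted p = 0.0654), lin-65 cco-1 RNAi replicate 1 (0.0645) or lin-65 cco-1 RNAi replicate 2 (0.122). With the replicate block, both genes passed in N2 (cyp-35A5 log2 fold change -1.22 ± 0.28, adjusted p = 0.0424, cyp-35C1 -1.04 ± 0.24, adjusted p = 0.0458). In met-2, DESeq2 called both (log2 fold change -1.26 ± 0.38, adjusted p = 0.0478 for cyp-35A5 and -0.94 ± 0.26, adjusted p = 0.0182 for cyp-35C1). From the 16 libraries cyp-35C1 passed in met-2 too (-1.22 ± 0.24, adjusted p = 0.009). Both genes also passed in N2 from the 16 libraries (log2 fold change -1.21 ± 0.29, adjusted p = 0.00784 for cyp-35A5 and -1.03 ± 0.21, adjusted p = 0.00312 for cyp-35C1). The tested genes cyp-35A3 and cyp-35A4, named after their values were seen, were called in no strain from all 18 libraries. Their log2 fold changes were -1.07 ± 0.41 and -0.67 ± 0.49 in met-2, -1.39 ± 0.41 and -0.85 ± 0.49 in lin-65, and -0.86 ± 0.39 and -0.96 ± 0.49 in N2. With the replicate block on the 6 N2 libraries alone, added after seeing the data, both passed in N2 (log2 fold change -0.81 ± 0.20, adjusted p = 0.0112 for cyp-35A3 and -1.01 ± 0.27, adjusted p = 0.0141 for cyp-35A4). DESeq2 called cyp-35A3 in lin-65 (-1.40 ± 0.42, adjusted p = 0.0461). The cyp-35 gene highest per kilobase, cyp-35A2, had a log2 fold change of -0.76 ± 0.29 in met-2, -0.32 ± 0.28 in lin-65 and -0.01 ± 0.28 in N2, called in none. The thiabendazole-induced gene cyp-35D1, at 0.121 to 0.421 CPM on cco-1 RNAi and 0.297 to 1.69 CPM on empty vector in N2, was not called from all 18 libraries but passed in N2 from the 16 (log2 fold change -1.83 ± 0.59, adjusted p = 0.0353).

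**Figure D4:**
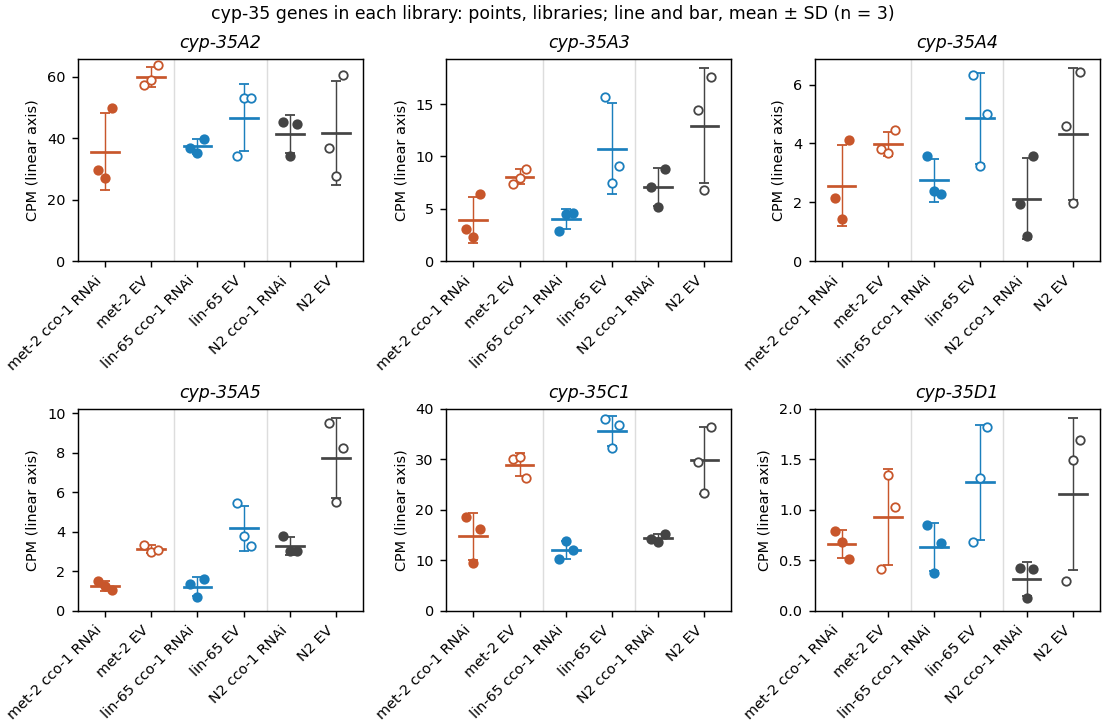
Each panel shows 1 cyp-35 gene, with CPM on a linear axis from 0 and the 6 groups across; points are libraries, and lines and bars are the mean ± SD (n = 3). In cyp-35A5 and cyp-35C1 the filled RNAi points lie below the open empty-vector points of the same strain, and cyp-35A5 is highest in N2 on empty vector.

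Several abundant or well-studied members were not called in any response from all 18 libraries. The log2 fold change of cco-1 RNAi for cyp-37A1, at 22.7 CPM per kb over all libraries, was -0.46 ± 0.23 in met-2, -0.79 ± 0.23 in lin-65 and -0.36 ± 0.23 in N2, and in met-2 it passed from the 16 libraries (-0.79 ± 0.19, adjusted p = 0.0373). The same quantity was 0.39 ± 0.28 in met-2, -0.21 ± 0.28 in lin-65 and -0.05 ± 0.28 in N2 for cyp-29A2, -0.08 ± 0.20 in met-2, -0.42 ± 0.20 in lin-65 and -0.21 ± 0.20 in N2 for cyp-43A1 and -0.16 ± 0.23 in met-2, 0.46 ± 0.23 in lin-65 and 0.32 ± 0.23 in N2 for cyp-44A1. For cyp-34A9, which lies downstream of insulin signalling, it was 0.12 ± 0.39 in met-2, -1.29 ± 0.41 in lin-65 and -0.34 ± 0.40 in N2. For cyp-36A1, which acts in the hypoxia pathway of the worm, it was 0.04 ± 0.41 in met-2, -0.38 ± 0.43 in lin-65 and 0.48 ± 0.43 in N2. The pharyngeal eicosanoid-producing gene cyp-33E2 had 0.87 ± 0.27 in met-2, 0.71 ± 0.27 in lin-65 and 1.08 ± 0.28 in N2, and its N2 libraries on the 2 diets did not overlap (7.64 to 11 CPM on cco-1 RNAi, 3.79 to 5.07 CPM on empty vector). Its N2 response passed from the 16 libraries (1.10 ± 0.25, adjusted p = 0.00598) and in DESeq2 (1.06 ± 0.29, adjusted p = 0.0138), and its met-2 response in DESeq2 (0.91 ± 0.27, adjusted p = 0.0421). DESeq2 also called cyp-25A3, named after its values were seen, in met-2 (1.31 ± 0.33, adjusted p = 0.00643). It had 12.4, 7.36 and 6.68 CPM in met-2 on cco-1 RNAi, against 3.69, 2.9 and 4.54 CPM on empty vector, without overlap. The leading genes of smaller subfamilies, cyp-23A1, cyp-32A1, cyp-33A1 and cyp-33E1, had N2 log2 fold changes of 0.41 ± 0.43, -0.05 ± 0.35, 0.30 ± 0.24 and 0.07 ± 0.25 and were not called in any strain. In lin-65 the log2 fold change of cyp-32A1 was -0.94. It had 4.25, 8.92 and 5.46 CPM there on cco-1 RNAi, against 13.7, 11.5 and 11 CPM on empty vector, without overlap.

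Between strains on the same diet, few P450 genes were called in lin-65 against N2. On empty vector 1 member, cyp-14A5, was called, against 1.42% of all genes. DESeq2 added cyp-33C5 (log2 fold change 1.19 ± 0.33, adjusted p = 0.0178), a gene named after its values were seen. From the 16 libraries cyp-33C5 (1.17 ± 0.30, adjusted p = 0.0315) and cyp-34A7, given below, passed as well. The gene cyp-33C5 had 6.53, 5.22 and 6.74 CPM in lin-65, against 2.82, 2.64 and 2.56 CPM in N2, with no overlap. From the 6 libraries compared alone no member was called. On cco-1 RNAi none was called with edgeR, against 1.11% of all genes, while 4 members had an unadjusted p under 0.05 and DESeq2 called 2, cyp-35A5 and cyp-34A10. On cco-1 RNAi cyp-35A5 had 1.36, 0.669 and 1.62 CPM in lin-65, against 3.79, 3.03 and 3.02 CPM in N2, with no overlap (log2 change -1.43 ± 0.35, adjusted p = 0.0564). It passed from the 16 libraries (log2 fold change -1.44 ± 0.33, adjusted p = 0.019) and in DESeq2 (-1.45 ± 0.39, adjusted p = 0.0172). The other, cyp-34A10, named after its values were seen, had 1.19, 0.52 and 1 CPM in lin-65, against 2.44, 3.88 and 2.86 CPM in N2, again with no overlap (log2 change -1.79 ± 0.44, adjusted p = 0.062). It passed from the 16 libraries (log2 fold change -1.81 ± 0.39, adjusted p = 0.012), in DESeq2 (-1.81 ± 0.49, adjusted p = 0.0179) and from the 6 libraries compared alone (-1.81 ± 0.38, adjusted p = 0.0306). The gene cyp-14A5 passed as lower in lin-65 on this diet from the 16 libraries (adjusted p = 0.0236). The N2 libraries in these comparisons are those of the N2 response.

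In met-2 against N2, more members were called than in lin-65, and more of all genes tested. On empty vector 15 members rose and 2 fell, against 15.3% of all genes in each direction. On cco-1 RNAi 15 rose and 5 fell, against 11.2% and 9.59% of all genes. The share of members called was 37.0% on cco-1 RNAi, beside 20.8% of all genes, and 31.5% on empty vector, close to the background of 30.5%. The median log2 fold change of the members was 0.49 on cco-1 RNAi and 0.50 on empty vector, beside 0.03 and 0.04 for all genes. There were 11 members called on both diets, and the share of all genes called on both was not counted. On empty vector the count of 17 became 9 without N2 EV replicate 2 or met-2 EV replicate 3, and 11 without N2 EV replicate 1, met-2 EV replicate 1 or met-2 EV replicate 2. On cco-1 RNAi the count of 20 became 12, 8 and 13 without N2 cco-1 RNAi replicate 1, 2 and 3, and 11 without met-2 cco-1 RNAi replicate 1. From the 6 libraries compared alone the cco-1 RNAi count was 7. Over all genes, the 18 libraries gave 3146 calls on cco-1 RNAi and 4616 on empty vector. Without N2 EV replicate 2, met-2 EV replicate 3 or met-2 EV replicate 1, the empty-vector calls over all genes were 2411, 2864 and 2800. Those on cco-1 RNAi were 1888 without N2 cco-1 RNAi replicate 2, and 1317 from the 6 libraries alone. In these fits the smaller member counts thus came with smaller counts of all genes. From the 16 libraries there were 16 members called on cco-1 RNAi and 21 on empty vector, beside 4394 and 7517 of all genes. The cco-1 RNAi calls that missed the threshold there were cyp-13A5 (adjusted p = 0.122), cyp-14A1 (0.0518), cyp-25A2 (0.223), cyp-33C7 (0.245), cyp-34A6 (0.122) and cyp-37A1 (0.105).

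**Figure D5:**
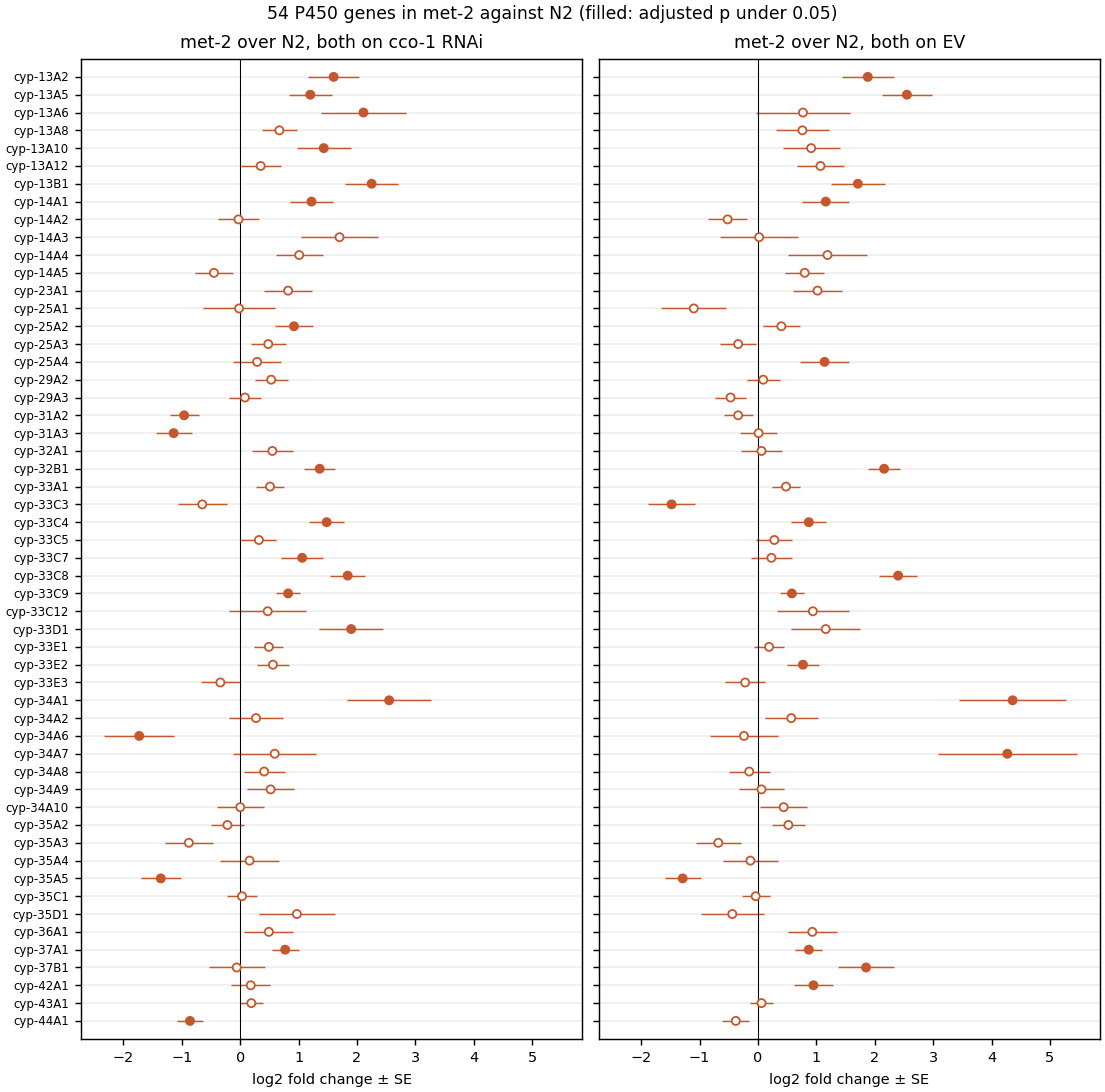
Points are log2 fold changes of met-2 over N2 for the 54 tested P450 genes, with bars of 1 SE, on cco-1 RNAi (left) and on empty vector (right). Filled points have an adjusted p under 0.05; most lie right of 0 on both diets, and cyp-35A5 is filled left of 0 on both.

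Beside these calls stand the markers of whole tissues. The summed level of the 7 intestine markers measured (elt-2, ges-1, act-5, ifb-2, pho-1, vha-6 and asp-1) ran from 8950 to 15700 CPM in met-2 on cco-1 RNAi and from 9890 to 11200 CPM in met-2 on empty vector. In N2 it ran from 6010 to 6800 CPM on cco-1 RNAi and from 5250 to 7590 CPM on empty vector. Of these 7, 3 rose in met-2 on each diet. The 6 germline markers summed to 624 to 803 CPM in met-2 and 868 to 918 CPM in N2 on cco-1 RNAi, and to 700 to 743 CPM in met-2 and 831 to 1070 CPM in N2 on empty vector, and 2 of them fell on each diet. The 6 sperm markers summed to 74.5 to 142 CPM in met-2 and 156 to 248 CPM in N2 on cco-1 RNAi, and to 105 to 126 CPM in met-2 and 193 to 290 CPM in N2 on empty vector, and 1 of them fell on cco-1 RNAi and 4 on empty vector. The 6 neuron markers summed to 113 to 378 CPM in met-2 and 158 to 192 CPM in N2 on cco-1 RNAi, and to 257 to 327 CPM in met-2 and 116 to 135 CPM in N2 on empty vector, where 2 of them rose. The 6 hypodermis markers summed to 1830 to 1960 CPM in met-2 and 1100 to 2140 CPM in N2 on cco-1 RNAi, and to 2300 to 2830 CPM in met-2 and 832 to 1880 CPM in N2 on empty vector, where 2 of them rose. The 6 body wall muscle markers summed to 4730 to 11700 CPM in met-2 and 5720 to 6330 CPM in N2 on cco-1 RNAi, where 1 fell, and to 6960 to 10000 CPM in met-2 and 7380 to 8400 CPM in N2 on empty vector, where 1 rose and 1 fell. No marker was at 0 in any group. The part of these differences in the P450 levels was not tested.

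The gene cyp-33C8 was higher in met-2 on both diets, with 255, 241 and 227 CPM in met-2 and 60.3, 67.1 and 74.4 CPM in N2 on cco-1 RNAi, and 28.5, 27.8 and 24.5 CPM in met-2 and 4, 3.93 and 7.14 CPM in N2 on empty vector. The strains did not overlap, and the log2 fold change of met-2 over N2 was 1.84 ± 0.30 (adjusted p = 0.000516) on cco-1 RNAi and 2.40 ± 0.32 (adjusted p = 0.000127) on empty vector. For cyp-32B1 the values were 17, 15.4 and 10.5 CPM in met-2 and 5.98, 5.09 and 5.67 CPM in N2 on cco-1 RNAi, and 9.26, 10.2 and 10.6 CPM in met-2 and 1.63, 3.05 and 1.91 CPM in N2 on empty vector. They were again separated (log2 change 1.36 ± 0.26 on cco-1 RNAi, adjusted p = 0.00159, and 2.16 ± 0.28 on empty vector, adjusted p = 9.63e-05), and both calls held without any 1 of the 18 libraries. Levels of cyp-13B1 were 9.51, 6.67 and 7.06 CPM in met-2 and 2.19, 0.97 and 1.64 CPM in N2 on cco-1 RNAi, and 4.22, 4.17 and 7.89 CPM in met-2 and 1.33, 0.678 and 2.78 CPM in N2 on empty vector (log2 change 2.25 ± 0.46 on cco-1 RNAi, adjusted p = 0.0026, and 1.71 ± 0.46 on empty vector, adjusted p = 0.0114). Its strains did not overlap on either diet, and its empty-vector call was lost without N2 EV replicate 2 (adjusted p = 0.0602) or met-2 EV replicate 3 (0.0626).

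In the cyp-13A run, cyp-13A2 and cyp-13A5 rose on both diets. The values of cyp-13A2 were 7.35, 19.1 and 25.7 CPM in met-2 and 5.31, 4.85 and 6.85 CPM in N2 on cco-1 RNAi, and 22.1, 11.8 and 17.1 CPM in met-2 and 5.93, 2.91 and 5.18 CPM in N2 on empty vector (log2 change 1.60 ± 0.44 on cco-1 RNAi, adjusted p = 0.0158, and 1.88 ± 0.45 on empty vector, adjusted p = 0.0059). Those of cyp-13A5 were 6.56, 2.79 and 4.37 CPM in met-2 and 2.44, 1.21 and 2.2 CPM in N2 on cco-1 RNAi, and 3.05, 3.18 and 2.49 CPM in met-2 and 0.742, 0.271 and 0.545 CPM in N2 on empty vector (log2 change 1.20 ± 0.37 on cco-1 RNAi, adjusted p = 0.0283, and 2.55 ± 0.43 on empty vector, adjusted p = 0.000752). Every met-2 library was above every N2 library of the same diet for both genes. The empty-vector calls held without any 1 of the 18 libraries, while those on cco-1 RNAi were lost without N2 cco-1 RNAi replicate 1 (adjusted p = 0.0576), N2 cco-1 RNAi replicate 2 (0.0673) or met-2 cco-1 RNAi replicate 3 (0.0715) for cyp-13A2 and without N2 cco-1 RNAi replicate 2 (adjusted p = 0.122), N2 cco-1 RNAi replicate 3 (0.0642) or met-2 cco-1 RNAi replicate 1 (0.173) for cyp-13A5. On cco-1 RNAi cyp-13A6 (log2 change 2.11 ± 0.73, adjusted p = 0.0488) and cyp-13A10 (log2 change 1.43 ± 0.46, adjusted p = 0.0367) rose too. These calls were lost without any 1 of the 6 libraries compared except met-2 cco-1 RNAi replicate 2 (adjusted p 0.063 to 0.154) for cyp-13A6 and without any 1 of the 6 libraries compared except N2 cco-1 RNAi replicate 3 (adjusted p 0.0514 to 0.14) for cyp-13A10.

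Members of cyp-33 beyond cyp-33C8 were called as well. Log2 fold changes of met-2 over N2 were 1.48 ± 0.30 (adjusted p = 0.00218) on cco-1 RNAi and 0.87 ± 0.30 (adjusted p = 0.0356) on empty vector for cyp-33C4 and 0.82 ± 0.20 (adjusted p = 0.00733) on cco-1 RNAi and 0.58 ± 0.20 (adjusted p = 0.0359) on empty vector for cyp-33C9. Their calls on cco-1 RNAi held without any 1 library, and those on empty vector were lost without any 1 of the 6 libraries compared except N2 EV replicate 3 (adjusted p 0.0658 to 0.108) for cyp-33C4 and without any 1 of the 6 libraries compared except N2 EV replicate 3 (adjusted p 0.0634 to 0.145) for cyp-33C9. On cco-1 RNAi cyp-33C7 (log2 change 1.06 ± 0.36, adjusted p = 0.0417) and cyp-33D1 (log2 change 1.90 ± 0.55, adjusted p = 0.0213) passed. The library that stood apart, met-2 cco-1 RNAi replicate 1, had the highest cyp-33C7 level, 17.6 CPM against 7.22 and 7.06 CPM in its mates, and without it the adjusted p was 0.355. Without N2 cco-1 RNAi replicate 1, 2 or 3 it was 0.0644, 0.141 and 0.114, and the cyp-33D1 call was lost without any 1 of the 6 libraries compared except met-2 cco-1 RNAi replicate 2 and met-2 cco-1 RNAi replicate 3 (adjusted p 0.0559 to 0.0913). On empty vector cyp-33E2 rose (log2 change 0.77 ± 0.28, adjusted p = 0.0434), a call lost without any 1 of the 6 libraries compared except N2 EV replicate 3 (adjusted p 0.0584 to 0.143).

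In cyp-14A, cyp-14A1 rose in met-2 (log2 change 1.22 ± 0.36 on cco-1 RNAi, adjusted p = 0.0216, and 1.16 ± 0.40 on empty vector, adjusted p = 0.036). On cco-1 RNAi it was lost without N2 cco-1 RNAi replicate 1 (adjusted p = 0.0839), N2 cco-1 RNAi replicate 2 (0.0828) or met-2 cco-1 RNAi replicate 1 (0.0901), and on empty vector without any 1 of the 6 libraries compared (adjusted p 0.0511 without met-2 EV replicate 3 to 0.127 without met-2 EV replicate 2). For cyp-14A5 the log2 fold change was -0.45 ± 0.32 (adjusted p = 0.339) on cco-1 RNAi and 0.80 ± 0.33 (adjusted p = 0.0722) on empty vector, and for cyp-14A4 1.01 ± 0.40 (adjusted p = 0.0824) on cco-1 RNAi and 1.19 ± 0.67 (adjusted p = 0.185) on empty vector, neither called. From the 16 libraries the met-2 values of cyp-14A5 passed in opposite directions (log2 fold change -0.83, adjusted p = 0.0274 on cco-1 RNAi and 0.79, adjusted p = 0.0136 on empty vector). Levels of cyp-37A1 were 54.8, 31.9 and 32.6 CPM in met-2 and 26.6, 22.2 and 21.2 CPM in N2 on cco-1 RNAi, and 49, 54.8 and 60.6 CPM in met-2 and 29.4, 25.9 and 34.4 CPM in N2 on empty vector (log2 change 0.77 ± 0.23 on cco-1 RNAi, adjusted p = 0.0232, and 0.87 ± 0.23 on empty vector, adjusted p = 0.00994). Its met-2 libraries lay above those of N2 on both diets, and the calls were lost without N2 cco-1 RNAi replicate 2 (adjusted p = 0.0838), N2 cco-1 RNAi replicate 3 (0.0895) or met-2 cco-1 RNAi replicate 1 (0.157) on cco-1 RNAi and without N2 EV replicate 2 (adjusted p = 0.0518) or met-2 EV replicate 3 (0.0534) on empty vector. Its relative cyp-37B1 rose on empty vector, with 5.39, 3.96 and 3.94 CPM in met-2 against 1.48, 1.36 and 0.926 CPM in N2 (log2 change 1.85 ± 0.48, adjusted p = 0.00993), while its cco-1 RNAi levels overlapped between strains.

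Weaker calls on 1 diet were made for cyp-25A2, cyp-25A4 and cyp-42A1. On cco-1 RNAi cyp-25A2 rose (log2 change 0.92 ± 0.32, adjusted p = 0.0492), with an adjusted p of 0.283 when met-2 cco-1 RNAi replicate 1 was left out, and 0.103, 0.172 and 0.0802 when N2 cco-1 RNAi replicate 1, 2 or 3 was left out. On empty vector cyp-25A4 rose (log2 change 1.14 ± 0.42, adjusted p = 0.0494), a call lost without any 1 of the 6 libraries compared except N2 EV replicate 2 (adjusted p 0.0848 to 0.154). Also on empty vector cyp-42A1 rose (log2 change 0.95 ± 0.34, adjusted p = 0.041), a call lost without any 1 of the 6 libraries compared except N2 EV replicate 3 (adjusted p 0.0518 to 0.172).

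The genes cyp-34A1 and cyp-34A7 were called on very few counts. On empty vector cyp-34A1 had 48 counts in met-2 against 2 counts in N2 over 3 libraries each, a depth-scaled ratio of 22.3 (95% interval 5.85 to 189), covering counting error only (log2 change 4.36 ± 0.92, adjusted p = 0.0029 in edgeR). Levels were 0.645, 0.707 and 2.31 CPM in met-2, against 0, 0 and 0.109 CPM in N2. On cco-1 RNAi it rose as well, with 0.793, 1.43 and 2.18 CPM in met-2 against 0.506, 0.121 and 0.102 CPM in N2 (log2 change 2.55 ± 0.72, adjusted p = 0.0186), and that call was lost without N2 cco-1 RNAi replicate 2 (adjusted p = 0.0727), N2 cco-1 RNAi replicate 3 (0.103) or met-2 cco-1 RNAi replicate 3 (0.0594). For cyp-34A7 the counts on empty vector were 27 in met-2 against 1 in N2, a depth-scaled ratio of 25.1 (95% interval 4.14 to 1030) (log2 change 4.27 ± 1.19, adjusted p = 0.0137), and the adjusted p was 0.0648 without N2 EV replicate 2. In lin-65 on empty vector it also had 27 counts, a ratio of 26.2 (95% interval 4.32 to 1070) to the same N2 libraries, and was not called (log2 change 4.18 ± 1.19, adjusted p = 0.114), but passed from the 16 libraries (adjusted p = 0.0108). N2 on cco-1 RNAi held 26 counts, a ratio of 26.1 (95% interval 4.29 to 1070) to the same libraries. This N2 response was not called from all 18 libraries. It passed from the 16 (adjusted p = 0.00587) and in DESeq2 (log2 fold change 4.52 ± 1.39, adjusted p = 0.0375). Each of these cyp-34A7 ratios has the 1 count of N2 on empty vector as its reference.

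Of the members that were lower in met-2, cyp-35A5 was called on both diets. It had 1.51, 1.23 and 1.03 CPM in met-2 and 3.79, 3.03 and 3.02 CPM in N2 on cco-1 RNAi, and 3.34, 2.97 and 3.09 CPM in met-2 and 9.49, 5.49 and 8.23 CPM in N2 on empty vector. The strains did not overlap, the log2 fold changes of met-2 over N2 were -1.36 ± 0.34 (adjusted p = 0.00938) on cco-1 RNAi and -1.29 ± 0.31 (adjusted p = 0.00642) on empty vector, and both calls held without any 1 library. On empty vector cyp-33C3 fell, with 1.23, 0.989 and 1.46 CPM in met-2 against 3.41, 3.93 and 2.94 CPM in N2 (log2 change -1.48 ± 0.40, adjusted p = 0.0116). It lies beside cyp-33C4 in the annotation, which rose on the same diet.

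On cco-1 RNAi cyp-31A2, cyp-31A3, cyp-44A1 and cyp-34A6 fell. The closely related genes cyp-31A2 and cyp-31A3 are needed in the worm for the lipid layer of the eggshell, and reads shared between them may be split by the counting. Levels of cyp-31A2 were 10.2, 14.4 and 12.5 CPM in met-2, against 21.2, 27 and 23.9 CPM in N2 (log2 change -0.96 ± 0.25, adjusted p = 0.011). Levels of cyp-31A3 were 8.94, 16.5 and 10.5 CPM in met-2, against 27.6, 26.6 and 25.6 CPM in N2 (log2 change -1.14 ± 0.31, adjusted p = 0.0147). Neither gene overlapped between strains, and the cyp-31A2 call was lost without N2 cco-1 RNAi replicate 2 (adjusted p = 0.0509). The mitochondrial-type P450 gene cyp-44A1 had 11.7, 14.2 and 16.4 CPM in met-2, against 25.5, 25.6 and 25.5 CPM in N2 (log2 change -0.86 ± 0.23, adjusted p = 0.0138). The germline and sperm marker sums given above were lower in met-2 on this diet too. They were also lower on empty vector, where cyp-31A2, cyp-31A3 and cyp-44A1 were not called (log2 fold change -0.34 to 0.01 in cyp-31A, -0.38 for cyp-44A1). The part of the markers in these values was not tested. For cyp-34A6, at 0.0721, 0.681 and 0.385 CPM in met-2 against 1.6, 1.7 and 0.716 CPM in N2 (log2 change -1.73 ± 0.60, adjusted p = 0.0466), the call was lost without any 1 of the 6 libraries compared except met-2 cco-1 RNAi replicate 2 and N2 cco-1 RNAi replicate 3 (adjusted p 0.0875 to 0.142). Exons of cyp-44A1 overlap npp-24 on the same strand, and exons of cyp-13A6, cyp-33D1, cyp-37A1 and cyp-37B1 overlap genes on the opposite strand. So do exons of cyp-14A2, cyp-14A3, cyp-23A1, cyp-33C11, cyp-33C12, cyp-33E3, cyp-35B1, cyp-35B3, cyp-36A1 and cyp-43A1. No source used here says whether strand was used in counting, so these counts may hold reads of the partner gene.

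The genes around the pathway were followed with a list of 23 redox partners, regulators and daf-9. None was called in any of the 3 responses to cco-1 RNAi with edgeR or DESeq2. At an unadjusted p under 0.05 there were 4 higher and 1 lower in N2, 0 in lin-65, and 1 higher and 1 lower in met-2. Those in N2 were emb-8, mdt-15, daf-12 and daf-9, higher, and cytb-5.1, lower. The N2 log2 fold change was 1.46 ± 0.50 (adjusted p = 0.174) for mdt-15 and 1.32 ± 0.57 (adjusted p = 0.245) for daf-12, both without overlap. The P450 reductase gene emb-8 had 203, 223 and 239 CPM in N2 on cco-1 RNAi, against 134, 120 and 168 CPM on empty vector, without overlap (log2 change 0.66 ± 0.22, adjusted p = 0.168). The log2 fold change in N2 was -0.52 ± 0.24 (adjusted p = 0.268) for the cytochrome b5 gene cytb-5.1 and -0.23 ± 0.19 (adjusted p = 0.501) for cytb-5.2. For nhr-45, a nuclear receptor gene known to act in the response of cyp-14A4 to mitochondrial dysfunction, N2 values were 15.5, 14.9 and 15 CPM on cco-1 RNAi and 6.82, 7.86 and 10.5 CPM on empty vector (log2 change 0.84 ± 0.50, adjusted p = 0.368). Those libraries did not overlap, and the test was not passed. In N2 both emb-8 and nhr-45 passed from the 16 libraries (log2 fold change 0.67, adjusted p = 0.0144 for emb-8 and 0.85, adjusted p = 0.0155 for nhr-45). The N2 response of the other genes on the list is not given from that fit.

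In met-2 against N2, 1 of the 23 rose on cco-1 RNAi and 4 on empty vector, against 11.2% and 15.3% of all genes. None fell with edgeR or DESeq2, or was lower at an unadjusted p under 0.05. The hormone-synthesis P450 gene daf-9 had 6.49, 11.6 and 14.4 CPM in met-2 and 4.05, 2.3 and 4.75 CPM in N2 on cco-1 RNAi, and 9.15, 9.18 and 9.43 CPM in met-2 and 1.78, 1.69 and 2.72 CPM in N2 on empty vector. Every met-2 library was higher (log2 change 1.51 ± 0.33 on cco-1 RNAi, adjusted p = 0.00398, and 2.13 ± 0.35 on empty vector, adjusted p = 0.000541), and the cco-1 RNAi call was lost from the 6 libraries compared alone (adjusted p = 0.0584). Its receptor gene daf-12 rose on empty vector, with 20, 15.9 and 13 CPM in met-2 against 3.71, 4.74 and 5.34 CPM in N2 (log2 change 1.81 ± 0.57, adjusted p = 0.0243). So did mdt-15, a Mediator subunit gene needed for detoxification and lipid genes, with 45.1, 45.6 and 35.1 CPM in met-2 against 12.8, 12.7 and 10.8 CPM in N2 (log2 change 1.80 ± 0.51, adjusted p = 0.0148), and the sterol-responsive factor gene sbp-1 (log2 change 0.92 ± 0.30, adjusted p = 0.0274). The daf-12 call was lost without any 1 of the 6 libraries compared except met-2 EV replicate 2 and met-2 EV replicate 3 (adjusted p 0.0503 to 0.0795), the mdt-15 call without N2 EV replicate 2 (adjusted p = 0.051) and the sbp-1 call without any 1 of the 6 libraries compared except met-2 EV replicate 3 (adjusted p 0.0695 to 0.0895). On cco-1 RNAi met-2 replicate 1 stood apart for these 3 regulators, with 1.8 CPM of daf-12, 5.55 CPM of mdt-15 and 19 CPM of sbp-1, each below all N2 libraries on that diet.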

How the data were processed

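Counts were measured for whole-worm L4 polyA RNA, 18 libraries in 6 groups of 3, assigned from their titles. Per the labels' protocols, the library kit was ScriptSeq v2. Bowtie 0.12.7 and DESeq are named, without their roles, per the submitters' processing notes. Build, annotation, counter and strand use: not given in the sources used here. Values deposited by the authors are raw counts per gene model, checked to be whole numbers, with 0 columns unused. Of 20505 models, 20068 were matched by sequence name to WBcel235 (Ensembl 115) for symbols, exon length and neighbours, and the other 437 hold 0.159% of counts. Replicates differed by more than counting noise.

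Genes passing filterByExpr by group (15110) were fitted with edgeR 4.0.16 (R 4.3.3, TMM factors, robust quasi-likelihood test, two-sided) on all 18 libraries, in 9 comparisons: the RNAi response in each strain, the lin-65 and met-2 responses minus that of N2, and each mutant against N2 on each diet. The SE is the absolute log2 fold change over the square root of F. CPM uses TMM-scaled library sizes. A count of 3 equals 0.153 to 0.51 CPM. Ratios over groups with 1 to 3 counts have exact binomial 95% intervals. The test was checked on simulated data. Members and lists were chosen with earlier results of these data known. Named members are those called in any comparison, the gene highest per kilobase in each subfamily, and a list of studied genes (cyp-13A12, cyp-14A4, cyp-29A2, cyp-31A2, cyp-31A3, cyp-33E2, cyp-34A9, cyp-35A2, cyp-35B1, cyp-36A1, cyp-44A1), with daf-9, emb-8, cytb-5.1, cytb-5.2, nhr-45 and called partner genes. Replicate numbers come from the titles, which state no pairing. Same-numbered N2 libraries deviated together (r = 0.126, 0.357 and 0.285 over genes), so they were taken as pairs. The lowest of these r was close to that of N2 EV replicate 3 with N2 cco-1 RNAi replicate 1 (0.12). The replicate block was fitted on all 18 libraries, with replicate effects shared by the 6 groups. It thus assumed shared effects in the mutants too, where same-numbered libraries did not all deviate together (in met-2, r = -0.282, 0.208 and -0.245). Same-numbered lin-65 EV and met-2 cco-1 RNAi libraries had higher r (0.687, 0.53 and 0.312). Alternatives were RLE size factors, no filter, DESeq2 1.42.0, a replicate block, the libraries of each comparison alone, the 16 libraries, leaving out each library, and, added after seeing the data, a block on just the 6 N2 libraries.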

Additional observations from a re-analysis of the deposited data

How the results depend on the processing

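The members called were 8 in the N2 response, 7 in the lin-65 response, 6 in the met-2 response, 0 in the lin-65 minus N2 response, 0 in the met-2 minus N2 response, 1 in lin-65 against N2 on empty vector, 17 in met-2 against N2 on empty vector, 0 in lin-65 against N2 on cco-1 RNAi and 20 in met-2 against N2 on cco-1 RNAi, and the genes called among all tested 127 in the N2 response, 108 in the lin-65 response, 167 in the met-2 response, 0 in the lin-65 minus N2 response, 0 in the met-2 minus N2 response, 214 in lin-65 against N2 on empty vector, 4616 in met-2 against N2 on empty vector, 168 in lin-65 against N2 on cco-1 RNAi and 3146 in met-2 against N2 on cco-1 RNAi. With DESeq2, the members called were 13 in the N2 response, 10 in the met-2 response, 1 in the lin-65 minus N2 response, 2 in lin-65 against N2 on empty vector and 2 in lin-65 against N2 on cco-1 RNAi. With DESeq2, the genes called among all tested were 547 in the N2 response, 280 in the lin-65 response, 357 in the met-2 response, 5 in the lin-65 minus N2 response, 153 in the met-2 minus N2 response, 375 in lin-65 against N2 on empty vector and 306 in lin-65 against N2 on cco-1 RNAi. From the 16 libraries, the members called were 16 in the N2 response, 1 in the lin-65 minus N2 response, 1 in the met-2 minus N2 response, 3 in lin-65 against N2 on empty vector and 3 in lin-65 against N2 on cco-1 RNAi. From the 16 libraries, the genes called among all tested were 2828 in the N2 response, 173 in the lin-65 response, 300 in the met-2 response, 23 in the lin-65 minus N2 response, 127 in the met-2 minus N2 response, 523 in lin-65 against N2 on empty vector, 7517 in met-2 against N2 on empty vector and 546 in lin-65 against N2 on cco-1 RNAi. With the libraries of each comparison alone, the members called were 14 in the N2 response, 2 in the lin-65 response, 0 in lin-65 against N2 on empty vector, 1 in lin-65 against N2 on cco-1 RNAi and 7 in met-2 against N2 on cco-1 RNAi. With the libraries of each comparison alone, the genes called among all tested were 2860 in the N2 response, 19 in the lin-65 response, 34 in the met-2 response, 4 in the met-2 minus N2 response, 51 in lin-65 against N2 on empty vector, 475 in lin-65 against N2 on cco-1 RNAi and 1317 in met-2 against N2 on cco-1 RNAi. With the replicate block, the members called were 0 in lin-65 against N2 on empty vector and 2 in lin-65 against N2 on cco-1 RNAi. With the replicate block, the genes called among all tested were 200 in the N2 response and 32 in the met-2 minus N2 response. With RLE size factors, the members called were 0 in lin-65 against N2 on empty vector. Without the filter, the genes called among all tested were 12 in the met-2 minus N2 response. An N2 fit added after seeing the data, with the replicate block on its 6 libraries, gave 19 members and 4351 genes in the N2 response. Leaving out each library in turn gave 5 to 13 in the N2 response, 4 to 9 in the lin-65 response, 4 to 7 in the met-2 response, 0 in the lin-65 minus N2 response, 0 in the met-2 minus N2 response, 0 to 2 in lin-65 against N2 on empty vector, 9 to 20 in met-2 against N2 on empty vector, 0 to 2 in lin-65 against N2 on cco-1 RNAi and 8 to 22 in met-2 against N2 on cco-1 RNAi. For all genes it gave 50 to 863 in the N2 response, 33 to 226 in the lin-65 response, 91 to 230 in the met-2 response, 0 to 1 in the lin-65 minus N2 response, 0 to 21 in the met-2 minus N2 response, 99 to 342 in lin-65 against N2 on empty vector, 2411 to 6095 in met-2 against N2 on empty vector, 93 to 248 in lin-65 against N2 on cco-1 RNAi and 1888 to 3877 in met-2 against N2 on cco-1 RNAi. No call changed sign under any of these alternatives, and of the values below the threshold whose p is printed above 1 did: the lin-65 response of cyp-14A5 was 0.15 from the 16 libraries, and -0.27 to 0.15 with each library left out, above 0 only without lin-65 EV replicate 1. Near the threshold, leaving out a library of a group outside the comparison also lost calls: cyp-13A5 and cyp-32B1 in the N2 response, cyp-13A12 and cyp-33C9 in the lin-65 response, cyp-14A5 in lin-65 against N2 on empty vector, cyp-25A4, cyp-33E2 and cyp-42A1 in met-2 against N2 on empty vector, cyp-13A10, cyp-13A6, cyp-25A2, cyp-33C7 and cyp-34A6 in met-2 against N2 on cco-1 RNAi. The cause of these shifts was not tested. Outside N2, same-numbered libraries did not deviate together in all pairs, so the replicate block is given for those comparisons only here, and 13 of 18 libraries correlated best with one of their own number. Low counts limit cyp-34A1, cyp-34A7, cyp-13A8 and cyp-14A4 on empty vector, and the 19 untested members.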
